A study of Bos taurus with 72 samples.

Results

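Lysine was added back, alone, to a culture medium that lacked every essential amino acid (EAA), and the RNA of bovine mammary epithelial cells (BMECs) was sequenced after 6 h. The libraries described here are the 6 of the Lys treatment and the 6 of the NEG treatment, 12 of the 72 libraries of the series, and they were chosen by their treatment labels. NEG was DMEM-F12 medium without EAA, and Lys was the same medium with L-lysine at 0.5 mmol/L, the concentration in the complete medium (POS). Each of the other 9 single-EAA treatments (Arg, His, Ile, Leu, Met, Phe, Thr, Trp and Val) was NEG with that amino acid alone, so that all 10 EAA media and NEG share the lack of the remaining EAA. The cells were wild-type primary cells at passage 6, isolated from mammary tissue of healthy dairy cows, and were serum-starved overnight before the medium was changed. The study calls the 6 replicates of a medium biological, but the sources do not say how many cows gave cells or whether replicates came from different cows, so the p-values measure the spread between these libraries. On the library kit and the culture plates the study's methods and its labels differ, equally for all 72 libraries.

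Lysine is an essential amino acid that mammals cannot make and that the lactating gland takes up from blood for casein synthesis. Together with methionine it is often described as limiting for milk protein in dairy rations. It is a cationic amino acid and enters cells largely through carriers that it shares with arginine. Cells are known to answer a shortage of amino acids with lower mTOR signalling and with the transcription programme driven by uncharged tRNA. Leucine and arginine have dedicated sensor proteins upstream of mTOR.

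The deposited table gives FPKM, read fragments scaled by gene length and by library size, for 29550 genes. Ensembl identifiers of the cow stand beside 27570 of them, and the other 1980 have serial names given by the authors. Neither the table nor the bovine reference table used here pairs these identifiers with gene symbols (0 identifiers matched its 37063 rows), so markers of epithelial cells and fibroblasts, the lysine transporters and degrading enzymes, the caseins and the other listed pathways were not analysed here. Genes are therefore described by their level, their length and their pattern over the media, and 4 of them are named by identifier. Lengths and whole reads were recovered from the FPKM themselves. All recovered values lay within 0.001 of a whole read, but the lengths were chosen to meet such a limit, so this is no check of them. The scale of the lengths rests on the premise that lengths are whole numbers.

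The 6 Lys libraries held 15057704 to 17097354 reads on genes and the 6 NEG libraries 15907885 to 17910737 (difference of the means, two-sided exact permutation p = 0.28). The number of genes above 0 was 16975 ± 160 (SD, n = 6) in Lys and 17271 ± 388 in NEG (two-sided exact permutation p = 0.12, with 0.0022 the smallest p possible). One library in each group stood apart from its replicates. The mean correlation of log2 levels with the other 5 replicates was 0.968 for Lys_1 and 0.954 for NEG_2, and 0.980 to 0.984 for the other 10 libraries. Each main count is therefore also given without Lys_1 and NEG_2.

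The first comparison asks what lysine alone changed in cells deprived of all EAA. Of 12121 genes with a mean of at least 1 FPKM over the 72 libraries, 4810 (39.7%) differed between Lys and NEG at a Benjamini-Hochberg adjusted p under 0.05 by limma on log2(FPKM + 1). With lysine 1686 genes (13.9%) were higher and 3124 (25.8%) were lower. Most differences were small. The median change was 0.37 on the log2 scale among the higher genes and -0.49 among the lower genes, and 2984 of the 4810 changed genes (62%) moved by less than 0.5. The FPKM ranges of the 2 groups did not overlap for 3258 genes (26.9%). In bulk RNA such a difference cannot be told apart from a change in the share of a cell type. The excess of lower genes was smaller under other scalings of the libraries and in a fit of all media. Lower genes made up 64.9% of the changed genes with the FPKM as deposited, 53.0% after rescaling by median ratios and 53.8% after scaling by total reads. In 1 fit of all 12 media, with the FPKM as deposited, 1288 genes differed between Lys and NEG, 599 higher and 689 lower (53.5%).

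Without Lys_1 and NEG_2, 5851 genes differed (48.3%), 2352 higher and 3499 lower, and 4573 of the 4810 genes were among them. The study called genes differentially expressed (DEG) at p under 0.05 with a log2 fold change past 1 in size. By these limits, with p unadjusted, 201 genes (1.66%) were DEG with lysine, 40 higher (0.33%) and 161 lower (1.33%). Without Lys_1 and NEG_2 the DEG fell to 124 (1.02%), 25 higher and 99 lower. All 201 DEG kept their direction without both libraries, but the remaining libraries had helped to choose them, so this is a description only. Of these DEG, 17 of the 40 higher and 92 of the 161 lower still passed both limits. The median log2 change of the 161 lower DEG was -1.22 over all libraries and -1.03 without the pair, and that of the 40 higher DEG was 1.20 and 1.01. With NEG_2 alone left out there were 135 DEG, and with Lys_1 alone left out 174. There were more DEG with a pseudocount of 0.1 (351, of which 90 higher and 261 lower) and by voom on the recovered reads (354, of which 91 higher and 263 lower).

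The gene that fell most was ENSBTAG00000051364, with a recovered length of 1314 bp. Its FPKM in NEG_1 to NEG_6 were 331, 235, 325, 254, 251 and 246, and in Lys_1 to Lys_6 they were 57.8, 13.1, 43.5, 21.0, 15.7 and 14.3. Every Lys library lay far below every NEG library, and Lys_1 and Lys_3 were the highest of the lysine libraries. The mean was 27.6 ± 18.7 FPKM (SD, n = 6) with lysine and 274 ± 42.4 without, a change of -3.48 (SE 0.32) on log2(FPKM + 1) at adjusted p = 0.00014 by limma. The change was -3.78 without Lys_1 and NEG_2.

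This fall was not particular to lysine. The median FPKM of ENSBTAG00000051364 was 13.6 in Val, 13.8 in Trp, 19.0 in Ile, 31.5 in Leu, 34.4 in Arg, 34.7 in His and 54.6 in Met, against 18.4 in Lys. It was 463 in Phe and 381 in Thr, above the NEG median of 252. Lysine differed from Phe by -4.23 (adjusted p = 8.1e-05) and from Thr by -3.89 (adjusted p = 0.00033) on the log2 scale in limma's fit of 66 libraries, and from none of the other 7 media at an adjusted p under 0.05. Single libraries of other media sat near the NEG level, up to 381 FPKM in Trp, 287 in Met, 271 in Val and 244 in Arg. No library of Lys, His, Leu or Ile did. Their highest libraries were at 57.8, 46.5, 42.6 and 38.3 FPKM. POS had a median of 29.2 FPKM and a highest library of 230. Against the mean of the other 9 EAA the difference was -1.20 (SE 0.46, adjusted p = 0.44).

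The gene that rose most among those whose ranges did not overlap was ENSBTAG00000044741, with a recovered length of 152 bp. In NEG_1 to NEG_6 it had 0.81, 1.46, 2.99, 3.74, 4.21 and 0.40 FPKM, and in Lys_1 to Lys_6 it had 4.49, 7.16, 13.5, 8.35, 13.9 and 8.97 FPKM. The lowest Lys library was only just above the highest NEG library. These levels rest on 1 to 11 reads in NEG and 11 to 36 reads in Lys. The mean was 9.38 ± 3.65 FPKM with lysine and 2.27 ± 1.60 without (SD, n = 6), a log2 difference of 1.75 (SE 0.34, adjusted p = 0.0026). It was 1.87 without Lys_1 and NEG_2. Trp, Val and POS reached similar or higher means of 10.5, 10.0 and 13.4 FPKM, and the difference between Lys and the mean of the other 9 EAA was 0.39 (SE 0.31, adjusted p = 0.77).

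**Figure D1:**
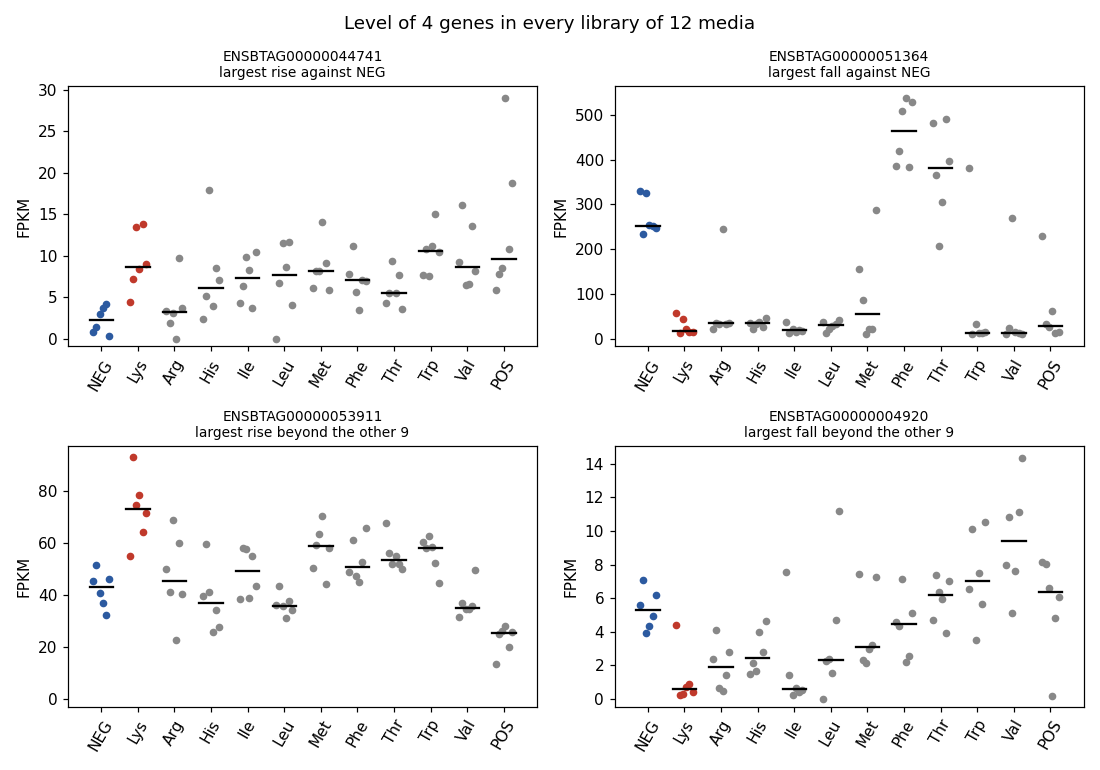
FPKM (linear axis) of the 4 genes named by identifier in each of the 6 libraries of all 12 media, with the median of each medium as a black line; Lys is red, NEG blue and the other media grey. ENSBTAG00000051364 lies at 13.1 to 57.8 FPKM in Lys and 235 to 331 in NEG, and ENSBTAG00000053911 has a higher median in Lys (73.1) than in any other medium.

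The other genes with the largest changes were mostly short. Among the 12 largest rises with ranges apart, lengths ran from 56 to 16445 bp and 8 were under 200 bp, and among the 12 largest falls lengths ran from 55 to 1314 bp and 7 were under 200 bp. One gene of 55 bp was the most abundant of all genes tested. It had 28922 to 42766 FPKM in NEG and 4260 to 8551 FPKM in Lys, a change of -2.50 on the log2 scale (adjusted p = 6.5e-06). Another gene of 55 bp fell from 28.3 to 70.9 FPKM in the NEG libraries to 1.06 to 12.0 FPKM in the Lys libraries. The second largest rise was a gene of 56 bp, at 308 to 468 FPKM in Lys and 43.6 to 208 FPKM in NEG, where NEG_2 was the lowest. Because FPKM divide by length, the level of this last gene rests on a mean of 246 reads per library.

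The higher and lower DEG differed in depth. The 40 higher DEG had a median length of 107.5 bp and a median of 6.17 reads per library, and 27 of them had fewer than 10 reads per library. At least 1 NEG library was at 0, and no Lys library, for 18 of them. The 161 lower DEG had a median length of 586 bp and a median of 287 reads, and 15 had fewer than 10 reads. The median length of all genes tested was 2342 bp and the median depth 440 reads per library. The rises past the fold limit thus rest on far fewer reads than the falls.

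The direction of change followed gene length across all genes. The 12121 genes were put into 5 classes of equal size by length. In the class of the shortest genes (12 to 1232 bp) 5.2% of genes were higher and 35.4% lower with lysine, and the median change was -0.26. In the class of the longest genes (3899 to 38086 bp) 30.7% were higher and 6.68% lower, and the median change was 0.18. Changed genes that were higher had a median length of 3635 bp and those that were lower 1787 bp. Among the 9885 genes with at least 100 reads per library the gradient was as steep, from 4.05% higher and 49.3% lower in the shortest class to 32.7% higher and 5.51% lower in the longest. It also held without Lys_1 and NEG_2, with 7.51% higher and 38.8% lower in the shortest class and 39.5% higher and 9.74% lower in the longest.

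**Figure D2:**
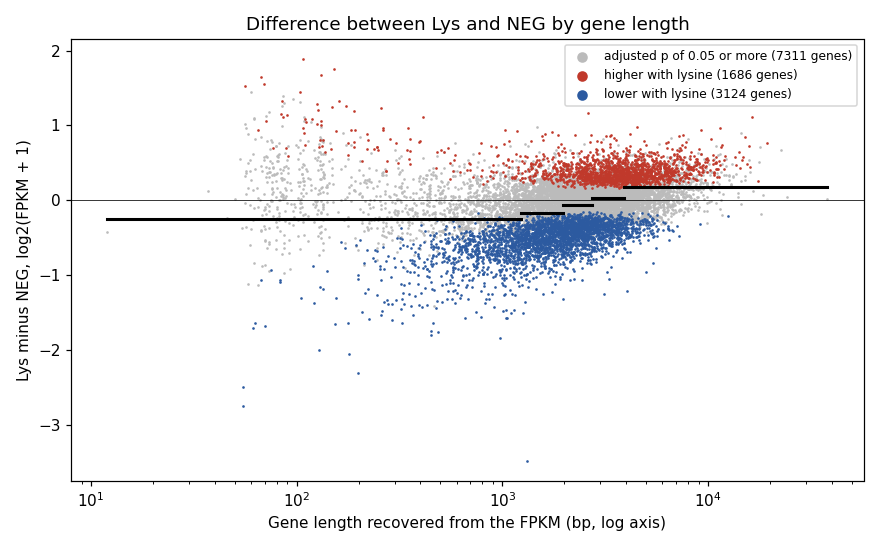
Each point is a gene, placed by its recovered length in bp (log axis) and by the difference of Lys minus NEG in mean log2(FPKM + 1); red and blue genes passed an adjusted p under 0.05, and each black bar is the median of 1 of 5 length classes. The class medians climb from -0.26 in the shortest class to 0.18 in the longest.

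The same balance can be read in each library. The median level of the longest class minus that of the shortest, relative to the mean of all 72 libraries, was -0.24 to -0.30 in 5 NEG libraries and -1.09 in NEG_2, and -0.03 to 0.08 in the Lys libraries. The groups did not overlap (means 0.04 ± 0.04 and -0.40 ± 0.34, SD, n = 6, two-sided exact permutation p = 0.0022, the smallest possible). Without Lys_1 and NEG_2 the means were 0.04 and -0.26 (exact permutation p = 0.0079, again the smallest possible with 5 against 5). Of the 54 libraries of the other 9 EAA, 50 lay above the highest NEG library, so the NEG libraries were low against nearly all single-EAA libraries and not against Lys alone. Whether the balance arose in the cells or in the RNA and libraries was not tested.

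**Figure D3:**
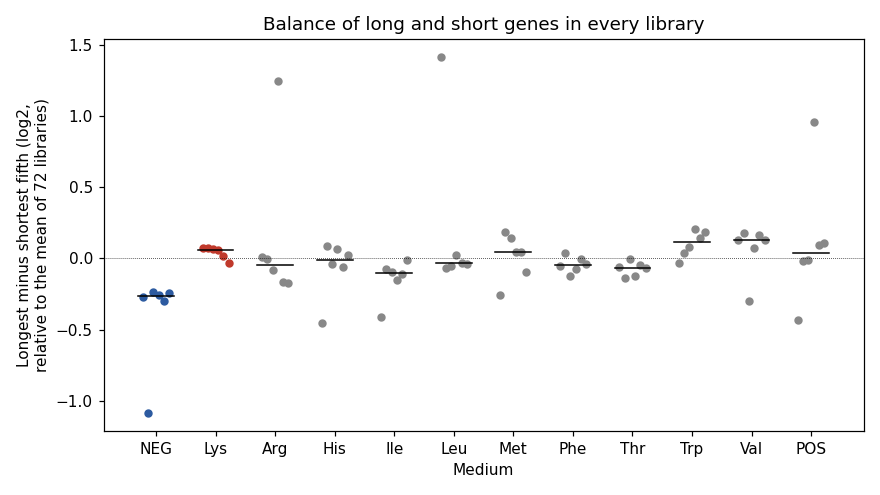
Balance of long and short genes in each of the 72 libraries by medium: the median log2 level of the longest class of genes minus that of the shortest, relative to the mean over all libraries, with the median of each medium as a black line. The 6 Lys libraries (red) lie between -0.03 and 0.08, above all NEG libraries (blue), of which NEG_2 is lowest at -1.09.

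With the trend on length removed within each library, a step chosen after the data were seen, 4396 genes differed between Lys and NEG, 2013 higher and 2383 lower, and 3337 of them were among the 4810. The step itself evens out the length classes, which then held 14.6% to 18.3% higher and 15.9% to 21.7% lower genes. The DEG numbered 131, of which 99 were among the 201. Of the 161 lower DEG 74 still passed, and of the 40 higher DEG 25. Both genes described above kept their change, at -3.22 for ENSBTAG00000051364 and 1.75 for ENSBTAG00000044741.

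**Figure D4:**
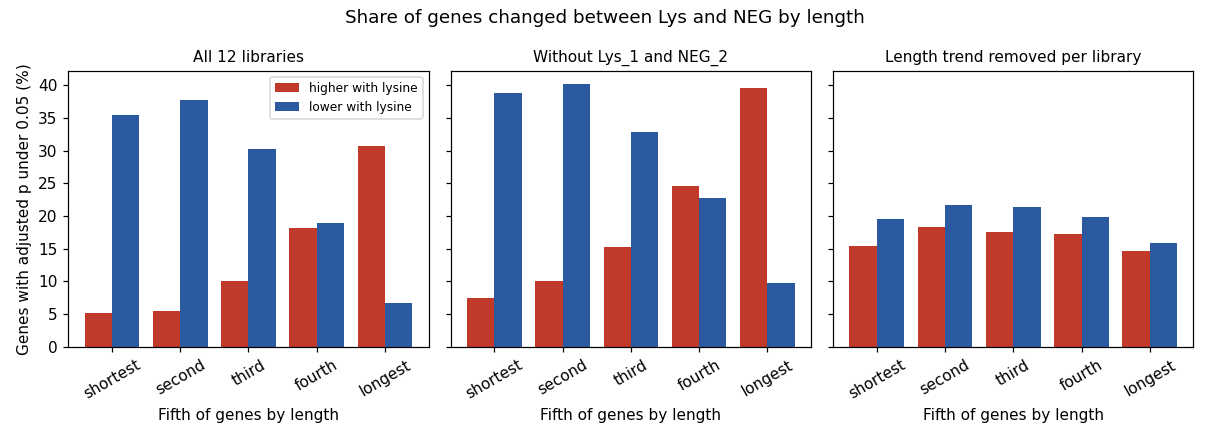
Percentage of genes in each of 5 equal classes by length that were higher (red) or lower (blue) in Lys than in NEG at an adjusted p under 0.05, with all 12 libraries, without Lys_1 and NEG_2, and after the length trend was removed from each library. The lower share drops from 35.4% to 6.68% from the shortest to the longest class in the first panel, and lies between 15.9% and 21.7% in the last, where the removal of the trend evens out the classes.

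The levels of the lysine DEG in the other media are given side by side, since all single-EAA comparisons share the NEG libraries. The DEG were chosen by the distance of Lys from NEG, so differences of Lys from other media are tilted towards a more extreme Lys. The 161 lower DEG had a median level of 5.15 in NEG and 3.89 in Lys on log2(FPKM + 1). In other media it was 3.24 in Leu, 3.64 in Arg, 3.70 in His, 3.74 in Val, 3.86 in Met, 3.88 in Ile, 3.92 in POS and 4.02 in Trp, and it was nearer to NEG in Phe (4.61) and Thr (4.71). The 40 higher DEG had a median level of 1.36 in NEG and 2.57 in Lys. Their levels in the other media ran from 1.90 in Arg to 2.77 in Val, with 2.57 in Ile and 2.65 in POS. Taken gene by gene, the median difference of Lys from the other EAA media over the 40 higher DEG ran from -0.18 against Val and 0.10 against Trp to 0.26 against Ile, 0.47 against Phe and 0.50 against Arg. Over the 161 lower DEG it ran from -0.92 against Thr and -0.83 against Phe to -0.04 against Arg and 0.44 against Leu.

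Lys was set against each other EAA in 9 fits of 12 libraries. They gave 32 changed genes against Trp (0.264%), 53 against Ile (0.437%), 324 against His (2.67%), 390 against Arg (3.22%), 615 against Met (5.07%), 2250 against Leu (18.6%), 3446 against Val (28.4%), 4442 against Phe (36.6%) and 6003 against Thr (49.5%). In the fit of 66 libraries (NEG and the 10 EAA media, with 1 shared estimate of the spread) the counts and their order were different. They were 10 against Trp (0.0825%), 19 against His (0.157%), 59 against Ile (0.487%), 67 against Phe (0.553%), 249 against Met (2.05%), 428 against Thr (3.53%), 1013 against Arg (8.36%), 2843 against Val (23.5%) and 5509 against Leu (45.5%). Trp had the fewest genes in both, while Phe and Thr went from the 2 highest counts to the middle of the order. All 9 comparisons share the Lys libraries. The median size of the log2 difference over all genes was 0.11 against Trp, 0.13 against Ile, 0.15 against Met, 0.17 against Arg, 0.18 against Phe, 0.20 against His, 0.23 against Thr, 0.27 against Val and 0.36 against Leu, beside 0.25 against NEG.

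The second comparison asks which genes lysine changed beyond the other single EAA. Lys was compared with the mean of the other 9 EAA media, each weighted equally, in 1 limma fit of 66 libraries. At an adjusted p under 0.05, 33 genes differed (0.272%), 22 higher (0.182%) and 11 lower (0.0908%) in Lys, and 963 (7.94%) did at an unadjusted p under 0.05. Of the 33 genes, 18 (0.149% of genes tested) also differed between Lys and NEG in the same direction, 13 higher (0.107%) and 5 lower (0.0413%). After scaling by total reads the split was 17 higher and 17 lower for the contrast with the other 9 EAA, and 11 higher and 8 lower for the genes that passed both tests. None of the 18 differed from each of the other 9 media separately at an adjusted p under 0.05 in limma's fit of 66 libraries or in 9 fits of 12 libraries, and 3 did at an unadjusted p under 0.05 in the former (ENSBTAG00000053911 and a gene of 2386 bp, higher, and a gene of 618 bp, lower). The 13 higher genes passed against 3 to 6 of the 9 media in that fit, and so did the 5 lower genes. One of the 13, a gene of 1602 bp, was lower in Lys than in Leu in that fit. Both counts depended on which libraries entered. The 33 genes became 7, 16, 12 and 14 without Lys_2, Lys_3, Lys_4 or Lys_5 alone, and 59 without Lys_1 alone. Without Lys_1 and NEG_2 the 33 became 100 and the 18 became 70 (45 higher, 25 lower), with 15 of the 18 among them (10 of the 13 higher and all 5 lower). Without Leu_1 and Arg_4, the libraries with the fewest genes above 0 in the series, the 18 became 79 (37 higher, 42 lower), and all 18 were among them. The 18 became 5, 7, 10 and 11 without Lys_2, Lys_4, Lys_5 or Lys_6 alone, and 36 without Lys_1 or NEG_2 alone. With libraries weighted by their own spread, 4819 genes differed from the other 9 EAA and 924 of them also from NEG in the same direction (458 higher, 466 lower), with all 18 among the 924. The excess of higher genes seen among the 18 was thus absent without Leu_1 and Arg_4 and with these weights. It was present without Lys_1, NEG_2, Leu_1 and Arg_4 together (312 genes, 188 higher and 124 lower). For the contrast with the other 9 EAA alone, 109 genes were higher and 82 lower without Leu_1 and Arg_4.

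The 13 higher genes were well covered, with 163 to 86094 reads per library and lengths of 177 to 5356 bp, and their rises were modest, from 0.18 to 0.83 above NEG (median 0.32) on the log2 scale. Lys was the highest of the 10 EAA media in 7 of them. The genes were chosen by the mean of the 9 media in the fit of 66 libraries, so their passes against each medium in that fit are a description only, and so are those in fits that use the same libraries. All 13 were higher in Lys than in Arg (4.77% of all genes tested were), with a median difference of 0.81, and 12 were in the fit of the 12 Lys and Arg libraries (2.02% of all genes). In the fit of 66 libraries 11 were higher than in Thr (2.44% of all genes), 10 than in Val (13.2%), 2 than in Met (1.05%) and 1 than in Ile (0.256%). Side by side, and all against the same NEG libraries, their median difference from NEG was 0.32 in Lys, 0.30 in Ile and 0.36 in Met, and it was -0.55 in Arg and -1.26 in POS, which holds all 10 EAA. Over all genes tested the median difference from NEG was -0.04 in Lys, -0.05 in Ile, -0.06 in Met, -0.08 in Arg and -0.06 in POS. The fall in POS did not hold for all 13. In limma's fit of all media, 10 were below NEG in POS and 1 above at an adjusted p under 0.05. Of all genes tested 25.5% were below and 21.8% above. Without Arg in the mean of the other EAA, 4 of the 13 passed both tests, and 8 genes did in all (4 higher, 4 lower).

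The most abundant of the 13, a gene of 2541 bp, shows this order. In Lys_1 to Lys_6 it had 2631, 2242, 2285, 2475, 2201 and 2524 FPKM, and in NEG_1 to NEG_6 it had 1878, 2265, 1705, 1841, 1750 and 1727 FPKM. NEG_2 reached into the lysine range and the other 5 NEG libraries did not. The gene had 672 to 1272 FPKM in Arg and 381 to 449 FPKM in POS, and 2179 to 2928 in Ile and 2019 to 2929 in Met. Lysine differed from NEG by 0.37 (SE 0.09, adjusted p = 0.0079) and from Arg by 1.23 on the log2 scale.

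A gene of 3489 bp had the largest rise of the 13 against NEG, 0.83 (SE 0.11, adjusted p = 0.00054). It had 60.2, 45.7, 39.3, 43.2, 44.2 and 46.4 FPKM in Lys_1 to Lys_6 and 28.5, 32.1, 23.7, 23.5, 24.8 and 21.8 FPKM in NEG_1 to NEG_6, with no overlap. It stood at 5.18 to 10.8 FPKM in Arg and 3.39 to 5.94 in POS, below every NEG library, and at 44.2 to 81.3 in Met. Its mean was 46.5 FPKM in Lys, and it was higher in Met (62.7), Val (50.6) and Ile (49.1). Without Lys_1 and NEG_2 this gene no longer passed both tests. Nor did it pass both with the length trend removed, without Lys_2 or without Arg in the mean. A gene of 2609 bp had 1565 ± 169 FPKM in Lys, 1253 ± 99.1 in NEG, 587 ± 89.7 in Arg and 432 ± 51.1 in POS (SD, n = 6). The gene of 2609 bp no longer passed both tests without Lys_2 or without Arg in the mean. All 6 Arg libraries of these genes were low, so the order did not rest on Arg_4.

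The largest rise beyond the other EAA was ENSBTAG00000053911, a gene of 177 bp with a different order of media. In Lys_1 to Lys_6 it had 55.0, 93.3, 74.6, 78.5, 64.4 and 71.7 FPKM, and in NEG_1 to NEG_6 it had 45.5, 51.5, 40.8, 37.1, 32.5 and 46.1 FPKM, from 157 to 273 reads and 99 to 135 reads. The groups did not overlap, although Lys_1 lay only a little above NEG_2. The means were 72.9 ± 13.0 and 42.2 ± 6.83 FPKM (SD, n = 6), a difference of 0.77 (SE 0.13, adjusted p = 0.0015) from NEG and of 0.62 (SE 0.12, adjusted p = 0.0063) from the other 9 EAA.

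Lys had the highest mean of ENSBTAG00000053911 among all 12 media. Met, Trp, Thr and Phe followed at 57.7 ± 9.23, 56.1 ± 6.59, 55.5 ± 6.35 and 53.6 ± 8.30 FPKM, and Lys was 0.33 to 0.43 above these 4 on the log2 scale without passing an adjusted p under 0.05. It was 0.58 above Ile (48.6 ± 9.36 FPKM, adjusted p = 0.1). In the fit of 66 libraries, which gave these values and chose the gene, the difference passed against Arg, His, Val and Leu (limma's adjusted p = 0.0033, 0.0025, 8.7e-05 and 2e-05). In the fit of the 12 Lys and Arg libraries the difference of 0.68 from Arg did not pass (adjusted p = 0.15). The gene was lowest in POS, at 23.1 ± 5.37 FPKM, below all libraries of Lys and NEG. Without Lys_1 and NEG_2 the difference from the other 9 EAA was 0.70 (adjusted p = 0.0017), while without Lys_2 it was 0.55 and no longer passed (adjusted p = 0.097).

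**Figure D5:**
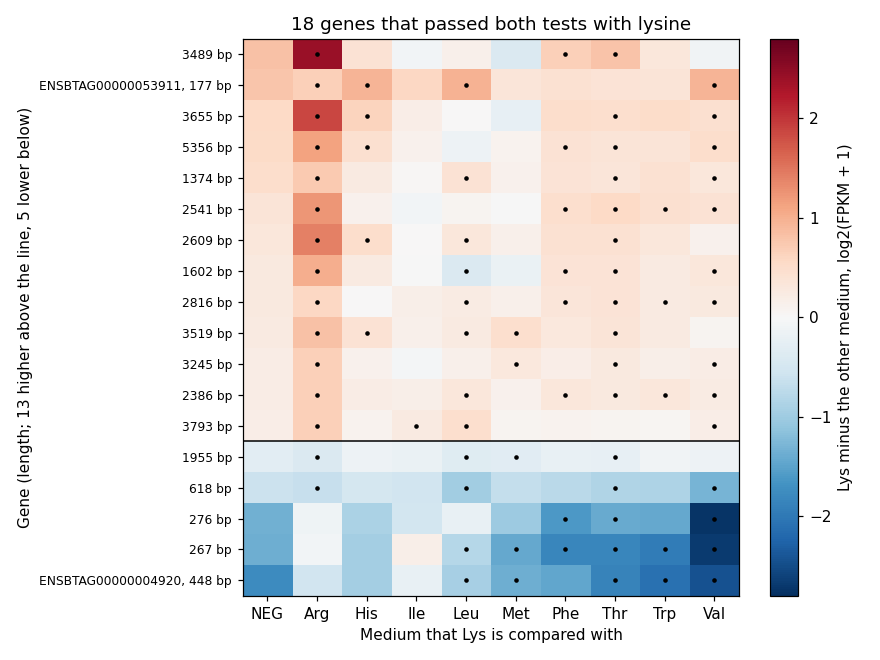
Difference in log2(FPKM + 1) of Lys minus NEG and of Lys minus each of the other 9 EAA media (columns) for the 18 genes that passed both tests (rows, by length in bp); red is higher in Lys, blue lower, and a dot marks an adjusted p under 0.05 in the fit of 66 libraries. All 13 higher genes are marked against Arg and 1 against Ile, and the deepest blue cells are those of the short lower genes against Val.

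The 5 lower genes were less abundant, with 13.6 to 926 reads per library and lengths of 267 to 1955 bp, and they were 0.29 to 1.75 below NEG on the log2 scale. Lys was the lowest of the 10 EAA media in 4 of them. Their passes in the fit of 66 libraries, which chose them, are likewise a description. All 5 were lower in Lys than in Thr (1.09% of all genes tested were), and 4 were lower than in Leu (18.2%) and 4 than in Val (10.3%). None passed against His (0.033%) or Ile (0.231%). Their median difference from NEG was -1.34 in Lys, -1.20 in Arg and -0.83 in Ile, and 0.69 in Val and 0.52 in POS. A gene of 267 bp was at 2.22 to 6.27 FPKM in Lys, 2.62 to 6.08 in Ile, 5.27 to 18.3 in NEG and 18.3 to 51.8 in Val, and NEG_2 was the only NEG library that reached the Lys range. A gene of 1955 bp changed little but evenly, with 24.6 to 28.1 FPKM in Lys and 30.5 to 36.0 in NEG. It no longer passed both tests with the length trend removed, without Lys_2 or without Arg in the mean. Of the 5 lower genes, 3 passed both tests with the length trend removed, 4 without Arg in the mean and only the gene of 267 bp without Lys_2.

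The largest fall beyond the other EAA was ENSBTAG00000004920, of 448 bp. It had 5.62, 7.11, 3.92, 4.37, 4.93 and 6.21 FPKM in NEG_1 to NEG_6, and 4.43, 0.27, 0.29, 0.75, 0.91 and 0.40 FPKM in Lys_1 to Lys_6, from 27 to 46 reads and 2 to 32 reads. Lys_1 lay within the NEG range and the other 5 Lys libraries were far below it. The means were 1.18 ± 1.62 FPKM with lysine and 5.36 ± 1.19 without (SD, n = 6), a difference of -1.75 (SE 0.30, adjusted p = 0.0016), and -1.99 without Lys_1 and NEG_2. Against the other 9 EAA the difference was -1.31 (SE 0.29, adjusted p = 0.018), and leaving out any one of Lys_2 to Lys_6 gave -1.20 to -1.32 with an adjusted p between 0.061 and 0.15.

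The median of ENSBTAG00000004920 was 0.57 FPKM in Lys, 0.60 in Ile and 1.93 in Arg, and in ascending order it went through Leu (2.33), His (2.47), Met (3.11), Phe (4.47), NEG (5.28), Thr (6.17), POS (6.36) and Trp (7.01) to Val (9.38). Lys was 0.20 below Ile and 0.55 below Arg on the log2 scale, neither at an adjusted p under 0.05. The Ile and Leu media each held 1 high library, 7.54 and 11.2 FPKM. The order of the media was thus led by Val and closed by Lys and Ile.

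Arginine is the other cationic EAA of the series, and its medium was compared with Lys directly. In the fit of their 12 libraries 390 genes differed (3.22%), 245 higher (2.02%) and 145 lower (1.2%) in Lys, and 26 higher and 3 lower genes did so by more than 1 on the log2 scale. Without Arg_4, which had few genes above 0, 1702 genes differed, 864 higher and 838 lower, with all 390 among them. Without Lys_1 there were 345 (224 higher, 121 lower), NEG_2 being no part of this fit, and leaving out any one of Lys_2 to Lys_6 gave 218 to 239 genes. The excess of higher genes depended on the settings, with 187 higher and 182 lower after scaling by total reads and 2245 higher and 2946 lower with sample weights.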

How the data were processed

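RNA sequencing of BMECs from 12 media with 6 replicates each gave 72 libraries. Per the labels and the study's methods, reads were aligned with HISAT2 (2.0.5 in the submitters' processing notes) and assembled with StringTie 1.3.3b. The sources differ on the counting tool: the submitters' processing notes name featureCounts 1.5.0-p3, and the study's methods name cufflinks and htseq-count. For the genome build, the sources used here give none. The authors deposited 1 table of FPKM, which are scaled by gene length and library size, and a count table was not used here. All 72 columns were matched to samples by their labels, and 0 columns were left over. For the work here, whole reads and gene lengths were recovered from the steps of the FPKM (in a test on made-up reads, 98.5% of 23212 genes came back exactly, and all 12782 with at least 1000 reads).

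Genes with a mean of at least 1 FPKM over 72 libraries were tested with limma 3.58.1 (R 4.3.3) on log2(FPKM + 1) with a trended prior and Benjamini-Hochberg adjustment over all 12121 genes. On this scale the change of genes at low FPKM comes out too small. Lys was compared with NEG and with Arg in fits of 12 libraries, and with the mean of the other 9 EAA in a fit of 66 libraries. FPKM are not counts, so limma took the place of the study's count test. On simulated data 71% of 2-fold and 95% of 4-fold changes between Lys and NEG were called, and 90% and 99% for the contrast with the other 9 EAA. The reads were simulated independently for each gene and library, with 200 genes changed and no deviation shared by the genes of a library. These shares therefore do not describe libraries that stood apart, such as Lys_1 and NEG_2. Single values were compared with two-sided exact permutation tests (scipy 1.17.1).

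The samples, gene lists and tests were chosen with earlier results of these data known. The 19 lists of 330 gene symbols and the cell markers could not be evaluated without symbols. The 4 identifiers named are, by the rule for tables without symbols, the largest rise and fall against NEG among genes with adjusted p under 0.05 and ranges apart, and the largest rise and fall among genes that also differed from the other 9 EAA. Other genes given by length were picked after their values were seen. Alternatives were another pseudocount, other filters, rescaling, voom on recovered reads, sample weights, a replicate block, leaving out libraries and 1 fit of all media.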

Additional observations from a re-analysis of the deposited data

Results flagged for a closer look

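In 16 groups of 6 values tested for a value far from the rest, 4 values stood apart by Dixon's ratio at its 95% limit. Chance alone gives about 1 in 20 groups of independent values. The groups here share libraries, and the named genes were chosen by their differences, so that rate does not apply to them. They came from Lys_1 and NEG_2, and their causes were not tested. The mean correlation with replicates was 0.968 for Lys_1, with 0.980 the nearest other Lys library, and 0.954 for NEG_2, with 0.982 the nearest. The balance of long and short genes in NEG_2 was -1.09, with -0.30 the nearest NEG library. ENSBTAG00000004920 had 4.43 FPKM in Lys_1, and the nearest Lys library had 0.91.

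The effect of lysine differed from the mean effect of the other 9 EAA, by the test of that difference in limma's fit of 66 libraries, for 33 of 12121 genes (0.272%). Among the genes named by identifier, the difference was 0.62 for ENSBTAG00000053911 and -1.31 for ENSBTAG00000004920.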

How the results depend on the processing

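Over 24 alternatives the number of genes that differed between Lys and NEG stayed within 1.5 times of 4810 in 22, with 3881 to 5645 when 1 replicate was left out. It was 1288 (599 higher, 689 lower) in 1 fit of all 12 media and 186 with a log2 limit of 1 added. The DEG stayed within that range of 201 in 20 of 24 alternatives (135 to 235 leaving out 1 replicate), and were 351 with a pseudocount of 0.1, 354 by voom, 124 without Lys_1 and NEG_2 and 131 with the length trend removed. Genes that differed from the other 9 EAA (33) ranged from 7 to 59 leaving out 1 Lys replicate (59 without Lys_1, 7 without Lys_2), and were 53 with no filter, 4819 with sample weights, 100 without Lys_1 and NEG_2, 191 without Leu_1 and Arg_4, 647 without all 4, 54 with the length trend removed, and 10, 53, 57 or 66 without Arg, Ile, Met or Thr in the mean. The 18 genes beyond the other EAA ranged from 5 to 36 leaving out 1 replicate (36 without Lys_1 or NEG_2; 5, 12, 7, 10 and 11 without Lys_2 to Lys_6), and were 924 with sample weights, 70 without Lys_1 and NEG_2, 79 without Leu_1 and Arg_4, 312 without all 4, 30 with the length trend removed (11 of the 18), 8 without Arg in the mean, and 0 when each of the 9 media had to pass, in 1 fit of 66 libraries or in 9 fits of 12. Genes that differed between Lys and Arg (390) ranged from 218 to 1702, the latter without Arg_4, and were 5191 with sample weights. Scaling by total reads made the split even for the other 9 EAA (17 higher, 17 lower) and 187 against 182 for Arg. It gave 11 higher and 8 lower genes beyond the other EAA, with 15 of the 18 among them. The causes of these shifts were not tested.

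With a replicate block the counts were 4037 against NEG, 200 DEG, 40 against the other 9 EAA, 17 beyond them and 106 against Arg. The 106 were 81 higher and 25 lower in Lys, beside 390 without the block. The labels give only a number. Deviations of same-numbered libraries correlated at -0.13 to 0.17 between Lys and NEG and at -0.17 to 0.40 between Lys and Arg, not over 0.1 in every pair, so the numbers were not used as pairs. In the former, 2 of 6 Lys libraries correlated best with the NEG library of their own number. All 4 named genes kept their direction and their call against NEG in the 22 or 23 alternatives run for each. Against the other 9 EAA, ENSBTAG00000004920 lost its call by voom (-2.11, adjusted p = 0.059) and without Val in the mean (-1.17, adjusted p = 0.063), and ENSBTAG00000051364 gained one with sample weights (-1.10, adjusted p = 0.00033). The alternatives with the length trend removed, without 1 medium in the mean, without 4 libraries and with 9 separate fits were chosen after the data were seen. Genes with fewer than 10 reads per library limit the precision of the rises past the fold limit.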
